A study of Mus musculus with 2 samples.

Results

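The chemokines Cxcl9, Cxcl10 and Cxcl11 are the ligands of the receptor Cxcr3, and they are described here in mouse medullary thymic epithelial cells (mTECs). They were taken by gene symbol and make up 3 of the 55487 genes in the count matrix. As a group they were chosen by their measured levels in these same cells and samples, so those levels are given as a description, and the adjusted p-values, from fits over all genes, only place them among the rest. Cxcr3 ligands are small secreted proteins that draw in activated T cells and natural killer cells. Interferon gamma is their classical inducer. Type I interferons also raise Cxcl10 and Cxcl11, NF-kB takes part in the induction of Cxcl10, and in the human thymus medullary epithelial cells have been found to make Cxcr3 ligands. In the C57BL/6 strain Cxcl11 carries a frameshift, so its transcript makes no full-length chemokine.

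The study asked how spermidine, a polyamine, changes gene expression in mTECs. All mice were wild-type C57BL/6J females of 4 weeks. Spermidine mice received 15 mg/kg spermidine in PBS intraperitoneally on 7 consecutive days, and PBS mice received PBS alone on the same days. Cells depleted of CD45+ leukocytes were sorted as mTEChi and post-Aire mTEClo, and 2 samples of each treatment were labelled with hashtag antibodies and run together as 1 10x Genomics 3' library. The labels do not say whether the 2 samples of a treatment came from separate mice or from pools, so p-values measure the spread between hashed samples. A total of 3739 cells were assigned to a sample, with 1092 and 805 cells in spermidine samples 1 and 2, against 1076 and 766 cells in PBS samples 1 and 2. These samples held 19764269 and 13881778 unique molecular identifiers (UMIs, counted RNA molecules), against 17449579 and 13073362 UMIs. Median depth per cell was 16818 and 16254 UMIs in the spermidine samples, against 14530 and 15939 UMIs in the PBS samples.

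Cells were clustered without the 3 chemokine genes and classes were named from marker lists. The Aire-stage-like class, with Aire, MHC class II genes and Ubd among the leading genes of its clusters, held 1355 cells in clusters 1, 2 and 4. Of its 14 markers 12 were higher than in the other cells in cluster 1, 13 in cluster 2 and 9 in cluster 4. The other classes used below were immature-like cells (244 cells, led by Ccl21a and Krt5), tuft-like cells (984), enterocyte- or hepatocyte-like cells (324), microfold-like cells (175), transit-amplifying-like cells (85), keratinocyte-like (122), ciliated-like (42) and muscle-like (36) cells, and 206 cells of cluster 7, which was left unnamed. Thymocyte-like cells (98) and myeloid-like cells (68) were also present. The sort gates can set the share of each class. Doublets were called from hashtags alone, so pairs of cells with the same hashtag remain.

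All 3 genes lie on the minus strand of chromosome 5 in the GRCm38 build, as a cluster in the order Cxcl9, Cxcl10, Cxcl11 from low to high coordinates. Cxcl9 (ENSMUSG00000029417.9) spans chr5:92321347-92328079 and Cxcl10 (ENSMUSG00000034855.13) spans chr5:92346638-92348889, both annotated as protein coding. Cxcl11 (ENSMUSG00000060183.6) spans chr5:92359544-92365485 and is annotated as a polymorphic pseudogene. The ADP-ribosyltransferase gene Art3, on the plus strand, runs from 92331827 to 92414628 across both Cxcl10 and Cxcl11, and its exons cover 133 exon bases of Cxcl10. The processed pseudogene Gm2673, also on the plus strand, overlaps 1582 exon bases of Cxcl11. Whether counting used strand is not given in the sources used here. If it did not, reads of these overlapping stretches cannot be told apart by gene.

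The 250 bases before the start of Cxcl9 and of Cxcl10 are shown because induction by interferon and NF-kB acts through promoter elements of these genes. They come from RefSeq on GRCm38.p6 and are written 5' to 3' on the strand of the gene, with capitals marking motif matches.
Cxcl9, chr5:92328080-92328329, minus strand: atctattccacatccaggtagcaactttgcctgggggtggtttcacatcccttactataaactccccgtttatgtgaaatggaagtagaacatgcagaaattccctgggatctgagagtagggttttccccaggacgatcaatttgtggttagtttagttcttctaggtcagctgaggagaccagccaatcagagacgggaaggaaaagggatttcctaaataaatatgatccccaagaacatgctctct
Cxcl10, chr5:92348890-92349139, minus strand: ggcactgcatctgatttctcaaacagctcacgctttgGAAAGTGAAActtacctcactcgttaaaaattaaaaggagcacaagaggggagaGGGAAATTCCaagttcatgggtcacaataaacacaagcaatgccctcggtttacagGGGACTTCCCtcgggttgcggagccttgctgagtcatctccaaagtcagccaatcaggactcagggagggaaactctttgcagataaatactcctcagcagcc
The letters searched on both strands were GAAA, 2 bases of any kind and GAAA again for the interferon-stimulated response element (ISRE), TTCNNNGAA for the gamma-activated site (GAS), and the NF-kB consensus. The Cxcl10 window held 1 ISRE match at -213 to -204 and 2 NF-kB matches at -159 to -150 and at -103 to -94, counted back from the gene start. None of these matches overlapped another. Of 32851 RefSeq promoter windows of the same length, 2.98% held the ISRE letters, 3.9% the NF-kB consensus and 7.02% the GAS letters. The Cxcl9 window held none of the 3 sets of letters, which says only that these letters are not in it. For Cxcl11 no promoter sequence is shown.

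Levels are given as CPM, the UMIs of a gene per 1000000 UMIs summed over a class in a sample. In such sums fewer expressing cells and less RNA per cell cannot be told apart. Transcripts of the 3 chemokines were concentrated in Aire-stage-like cells. Those cells were 36.24% of all cells and held 74.30% of the 16237 Cxcl9 UMIs, 79.96% of the 25858 Cxcl10 UMIs and 79.78% of the 4584 Cxcl11 UMIs. Tuft-like cells, 26.32% of all cells, held 0.53%, 1.26% and 0.63% of the UMIs of Cxcl9, Cxcl10 and Cxcl11.

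Cxcl10 had 727.9 and 825.2 CPM in Aire-stage-like cells of spermidine samples 1 and 2, against 624.2 and 621.1 CPM in those of PBS samples 1 and 2. Both spermidine samples were above both PBS samples, as for 21% of all genes tested in that class. By the mean of the 4 samples, each weighted equally, the order of classes by Cxcl10 level was Aire-stage-like cells at 699.6 CPM, transit-amplifying-like cells at 511.5, immature-like cells at 397.9, ciliated-like cells at 280.2, microfold-like cells at 237.9 and enterocyte- or hepatocyte-like cells at 125.7. All other classes had means between 24.1 and 64.8 CPM, with keratinocyte-like and tuft-like cells lowest. The transit-amplifying-like class spread over samples at 578.5 and 314.2 CPM in spermidine samples, against 410.5 and 742.8 CPM in PBS samples, and so overlapped both of its neighbours in the order. Immature-like cells had 274.2 and 380.3 CPM in spermidine samples, against 462.0 and 475.0 CPM in PBS samples, below every Aire-stage-like value. Ciliated-like cells had 825.5 and 241.9 CPM in spermidine samples, against 12.9 and 40.7 CPM in PBS samples, the widest spread of any class, over 42 cells. Microfold-like cells had 139.4 and 264.5 CPM in spermidine samples, against 40.7 and 507.1 CPM in PBS samples, a spread that overlapped both neighbours. Tuft-like cells had 48.3 and 14.9 CPM in spermidine samples, against 21.7 and 15.1 CPM in PBS samples, below every value of the 3 leading classes. In spermidine sample 1, 1 tuft-like cell held 84 of the 135 Cxcl10 UMIs, and the class was at 18.6 CPM there without it.

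Cxcl9, the member most closely tied to interferon gamma in textbook accounts, had 470.1 and 350.3 CPM in Aire-stage-like cells of spermidine samples, against 316.2 and 500.6 CPM in those of PBS samples. The treatments overlapped. By the mean of the 4 samples ciliated-like cells (412.5 CPM) stood next to Aire-stage-like cells (409.3), but their samples ran over 1172.5 and 63.7 CPM with spermidine, against 88.4 and 325.4 CPM with PBS, and 1 cell carried 384 of the class's 562 Cxcl9 UMIs. Immature-like cells (293.8 CPM), enterocyte- or hepatocyte-like cells (252.1), microfold-like cells (224.1) and transit-amplifying-like cells (140.9) followed. The sample ranges of each of these neighbours overlapped. In the enterocyte- or hepatocyte-like class 1 cell held 260 of 1111 Cxcl9 UMIs. Tuft-like cells had 6.4 and 4.1 CPM in spermidine samples, against 8.9 and 4.3 CPM in PBS samples. Myeloid-like cells, a known source of Cxcl9, had a mean of 78.4 CPM over 68 cells. Thymocyte-like cells had 24.8 and 22.1 CPM in spermidine samples, against 0 and 251.9 CPM in PBS samples. In PBS sample 2, 1 of those cells held 27 of the 28 UMIs.

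Cxcl11 had its highest means of the 4 samples in the Aire-stage-like and the immature-like class, at 124.4 ± 15.3 and 115.7 ± 58.2 CPM (SD, n = 4 each), which overlapped. In Aire-stage-like cells the spermidine samples had 126.9 and 145.1 CPM, against 114.2 and 111.5 CPM in PBS samples. In immature-like cells the order of treatments was turned round, with 53.9 and 79.1 CPM in spermidine samples, against 156.1 and 173.8 CPM in PBS samples. Neither class overlapped between treatments. Of all genes tested, 21% had both spermidine samples above both PBS samples in Aire-stage-like cells, and 17.3% had both below in immature-like cells. Transit-amplifying-like cells (mean 77.8 CPM) had 131.7 and 23.9 CPM in spermidine samples, against 68.4 and 87.3 CPM in PBS samples. Apart from ciliated-like cells (45.7) all other classes had means of 19.0 CPM or below, and myeloid-like cells held a single Cxcl11 UMI.

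**Figure D1:**
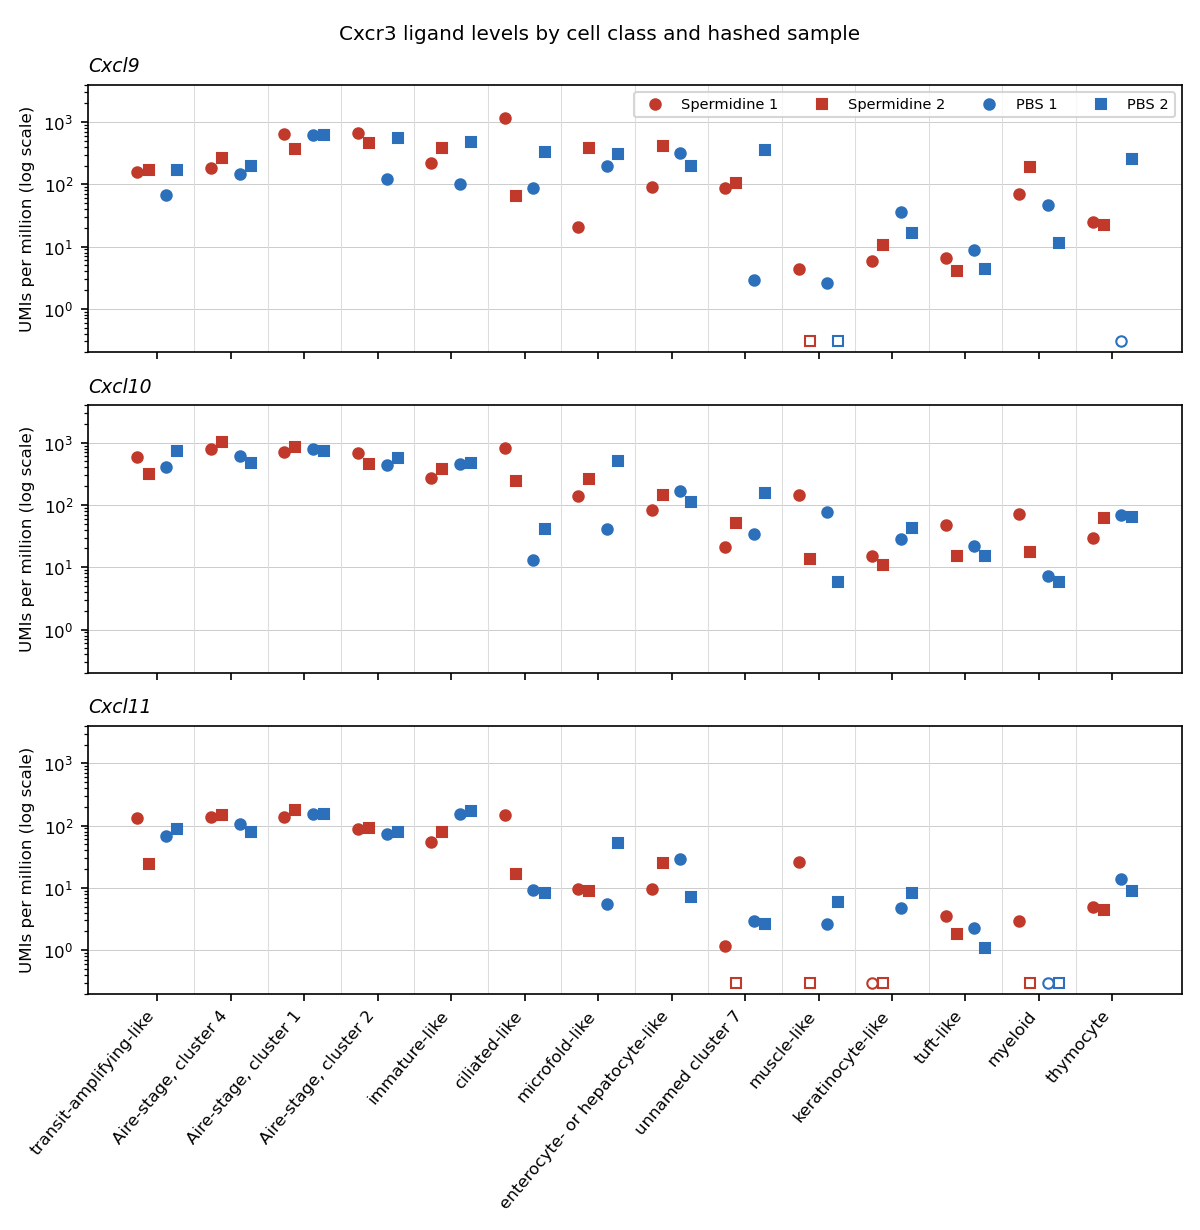
CPM (log axis) of Cxcl9, Cxcl10 and Cxcl11 in each class, with Aire-stage-like cells split into clusters 4, 1 and 2, 1 point for each hashed sample, spermidine left of PBS, and open points at the foot for samples with no UMI. The Aire-stage-like clusters lie between 440.7 and 1032.4 for Cxcl10 and tuft-like cells between 14.9 and 48.3, and for Cxcl11 both spermidine points of the immature-like class (53.9 and 79.1) lie below both PBS points (156.1 and 173.8).

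Within the Aire-stage-like class the 3 clusters differed. Cluster 4, in which 11 of 12 cell division markers were also higher than in the other cells, had 782.2 and 1032.4 CPM of Cxcl10 in spermidine samples, against 605.8 and 471.3 in PBS samples. Its Cxcl9 levels were 185.6 and 267.1 CPM in spermidine samples, against 147.8 and 196.9 in PBS samples. Cluster 1, led by Cd74, H2-Aa and Csn2, had 702.0 and 839.0 CPM of Cxcl10 in spermidine samples, against 785.3 and 742.8 in PBS samples. Its Cxcl9 levels were 645.0 and 370.4 CPM in spermidine samples, against 608.3 and 611.5 in PBS samples, all above every value of cluster 4. Cluster 2, led by Cd52, had 675.6 and 460.8 CPM of Cxcl10 in spermidine samples, against 440.7 and 567.2 in PBS samples. The number of Cxcl9 UMIs per Cxcl10 UMI was 0.58 over the Aire-stage-like class, 0.26 in cluster 4, 0.26 in transit-amplifying-like cells and 1.98 in enterocyte- or hepatocyte-like cells. The number of Cxcl11 UMIs per Cxcl10 UMI was 0.18 in Aire-stage-like cells and 0.31 in immature-like cells.

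Detection gave a similar picture. Cells were thinned to 2000 UMIs each, because a deeper cell shows more genes. Cxcl10 then had a UMI in 43.9% of Aire-stage-like cells, 44.0% of transit-amplifying-like cells, 30.7% of immature-like cells and 3.91% of tuft-like cells. Without thinning the share was 73.9% in Aire-stage-like cells (95% Clopper-Pearson interval 71.5 to 76.3%, median depth 21651 UMIs) and 17.2% in tuft-like cells (14.9 to 19.7%, median depth 11628 UMIs). Thymocyte-like cells, which should lack these transcripts, had a Cxcl10 UMI in 20.4% of cells unthinned (12.9 to 29.7%, median depth 5463.5 UMIs) and in 7.14% at 2000 UMIs. The tuft-like share was below the thymocyte-like share for Cxcl10, Cxcl9 and Cxcl11 alike. Since thymocyte-like cells carried chemokine UMIs themselves, this comparison cannot decide whether tuft-like cells express these genes. Thymocyte-like cells also held 40 Aire UMIs in 12 of 98 cells, and 1 of them in PBS sample 2 held 27 of the 28 Cxcl9 UMIs there. Free RNA and pairs of cells were not tested as sources of these UMIs. Intervals cover counting error only. At 2000 UMIs Cxcl9 had a UMI in 24.3% of Aire-stage-like cells, 6.12% of thymocyte-like cells and 1.24% of tuft-like cells. The shares for Cxcl11 were 19.6%, 2.04% and 0.618% in the same classes.

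Few cells carried most of the Cxcl9 and Cxcl10 molecules. Cells with at least 10 Cxcl10 UMIs were 617 of 3739 (16.5%) and held 88.1% of all Cxcl10 UMIs. For Cxcl9 there were 273 such cells (7.30%), which held 85.7% of its UMIs, and 37 cells with at least 100 UMIs held 43.6%. For Cxcl11 there were 106 such cells (2.83%), which held 38.2%. The highest cell had 586 UMIs of Cxcl9, 417 of Cxcl10 and 68 of Cxcl11. In Aire-stage-like cells the share with at least 10 Cxcl10 UMIs was 40.8% and 38.6% in spermidine samples, against 27.7% and 30% in PBS samples. Median depth of those Aire-stage-like cells was 23007 and 21538 UMIs in spermidine samples, against 20089 and 20614.5 UMIs in PBS samples, and its part in that share was not tested. In cluster 4 the share was 53.0% and 50.9% in spermidine samples, against 33.9% and 41.2% in PBS samples. In immature-like cells it was 10.6% and 15.9% in spermidine samples, against 20.5% and 18.5% in PBS samples. The share with many Cxcl10 molecules thus stood above PBS in both spermidine samples in Aire-stage-like cells and below it in immature-like cells. How many other genes do so on this measure was not computed.

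**Figure D2:**
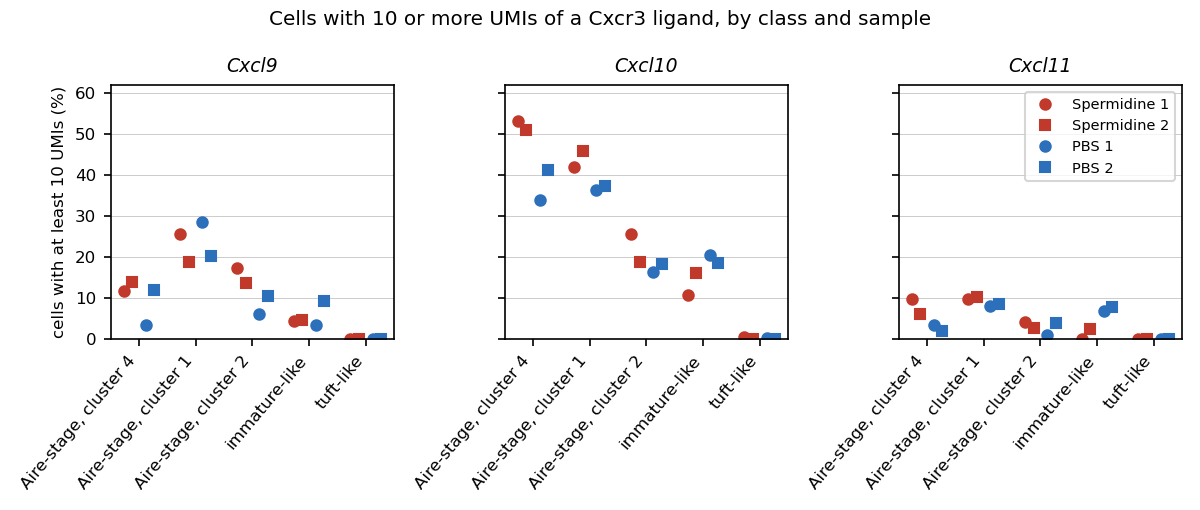
Percent of cells with at least 10 UMIs of each chemokine in the 3 Aire-stage-like clusters, immature-like cells and tuft-like cells, 1 point for each hashed sample, spermidine left of PBS. For Cxcl10 the spermidine points lie at 53.0% and 50.9% in cluster 4, against 33.9% and 41.2% for PBS, and at 10.6% and 15.9% in immature-like cells, against 20.5% and 18.5% for PBS.

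The 3 chemokines were found together in single Aire-stage-like cells more often than the product of their separate shares. At 2000 UMIs per cell 68 of 1306 Aire-stage-like cells (5.21%) had a UMI of all 3 genes, where the product of the shares gives 2.09%. The ratio of observed to product was 2.85 and 2.06 in the spermidine samples, against 2.79 and 2.23 in the PBS samples. None of the 3 was seen in 533 cells (40.8%, product 34.1%), and Cxcl10 alone was seen in 21.8%. By pairs, cells with both genes exceeded the product 1.48 times for Cxcl10 and Cxcl11, 1.38 times for Cxcl9 and Cxcl11 and 1.36 times for Cxcl9 and Cxcl10. Of Cxcl11-positive cells 64.8% also had Cxcl10, and of Cxcl9-positive cells 59.7% did. Without thinning 520 of 1355 cells (38.4%) had all 3, against 25.8% from the product. Cells of a sample share a library and a range of depths, so these ratios are descriptions.

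**Figure D3:**
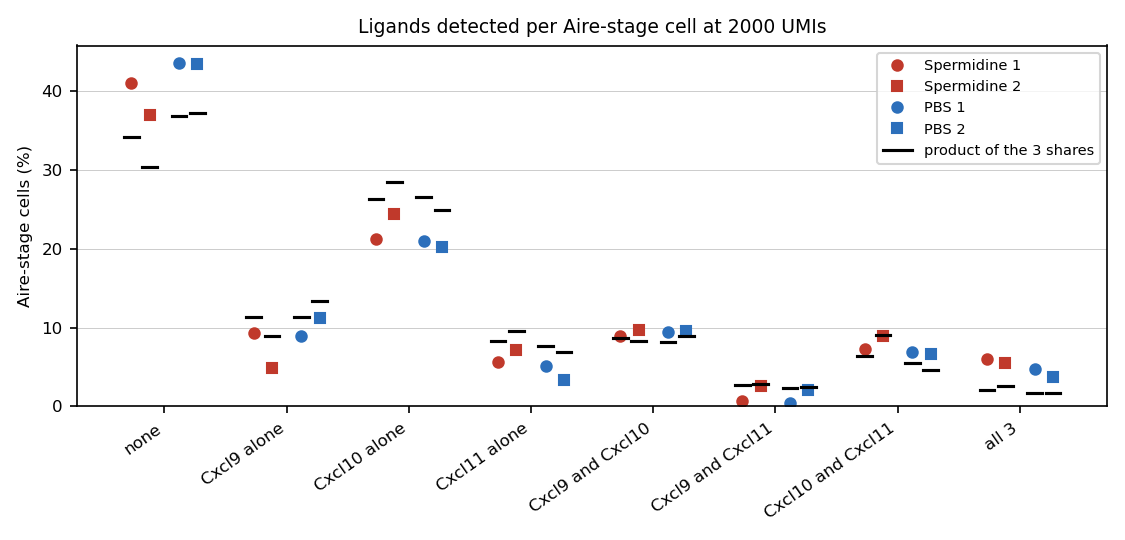
Percent of Aire-stage-like cells with each combination of the 3 chemokines at 2000 UMIs per cell, 1 point for each hashed sample, spermidine left of PBS, with a black line for the percent that the product of that sample's shares gives. All 4 points of the combination of all 3 genes lie above their lines, 2.06 to 2.85 times, and all 4 points of each single-gene combination lie below theirs.

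Across single Aire-stage-like cells the gene most like Cxcl10 was Cxcl11, and the gene most like Cxcl11 was Cxcl10. Pearson's r of log counts per 10000 between them was 0.56 and 0.62 in spermidine samples, against 0.67 and 0.60 in PBS samples. For Cxcl9 and Cxcl10 r was 0.35 and 0.33 in spermidine samples, against 0.36 and 0.36 in PBS samples. Within clusters 1, 2 and 4, r of Cxcl10 and Cxcl11 over the samples was 0.49 to 0.73, 0.61 to 0.66 and 0.23 to 0.63. For Cxcl9 and Cxcl10 it was 0.22 to 0.35, 0.25 to 0.53 and 0.12 to 0.40 there. For Cxcl9 and Cxcl11 it was 0.06 to 0.41, 0.19 to 0.43 and 0.10 to 0.33. Over all 1355 Aire-stage-like cells and 19156 genes, the 5 genes most like Cxcl10 were Cxcl11 (r = 0.60), Cxcl9 (0.35), Nfkbie (0.29), Aire (0.28) and Icam1 (0.28). For Cxcl9 they were Cxcl10 (0.35), Cxcl11 (0.28), Isg15 (0.27), Gbp2 (0.25) and Ubd (0.25), and for Cxcl11 they were Cxcl10 (0.60), Ing1 (0.31), Aire (0.28), Cxcl9 (0.28) and Crip3 (0.26). Values near 0.3 or below are weak in counts this sparse. Over the means of 6 classes, those with at least 20 cells in each sample, 13606 genes were compared. The nearest pattern to Cxcl10 was that of Nfkbie (r = 0.999), followed by Cd40 (0.99), Sec13, Kdm1b and Adrm1. For Cxcl9 the nearest were Ecscr (0.994), Pdgfa, Aco1, Pkdcc and Ppp1r18, and for Cxcl11 Uhrf1 (0.987), Car13, Trim65, Ptprq and Fzd1. On this measure r was 0.86 for Cxcl9 and Cxcl10, 0.70 for Cxcl9 and Cxcl11 and 0.94 for Cxcl10 and Cxcl11. With 6 points and 13606 genes the nearest are the highest of many, so these values are descriptions. The transit-amplifying-like and ciliated-like classes, among others, were too small to be included. The classes come from the same 4 samples and 1 library.

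Aire-stage-like cells with and without a Cxcl10 UMI at 2000 UMIs were then set side by side within each sample, with the full counts of each group summed. Positive cells numbered 209 and 169 in spermidine samples, against 98 and 97 in PBS samples, and negative cells 272 and 180, against 136 and 145. Positive cells were somewhat deeper, with a median of 24515 UMIs against 22265.5 UMIs in negative cells of spermidine sample 1, and likewise in the other samples. Genes were counted where their mean over the positive and negative groups was at least 10 CPM. That kept 23 of 32 type I interferon targets and 23 of 30 interferon gamma targets. A gene low in negative cells could enter through its level in positive cells, as Rsad2 did, so these counts are descriptions. Genes induced by type I interferon were higher in positive cells of all 4 samples for 10 of 23 genes counted, and lower in all 4 for 0 of 23. Over all 10451 genes 9.02% were higher in all 4 samples and 15.7% were lower. Of genes induced by interferon gamma 10 of 23 were higher and 2 of 23, the MHC class I genes B2m and H2-K1, were lower. The median of the mean log2 ratio, taken on values plus 1, was 0.37 for the type I targets, 0.27 for the interferon gamma targets and -0.04 for all genes.

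Rsad2, the antiviral enzyme viperin, had 41.2, 53.9, 9.91 and 6.92 CPM in positive cells of spermidine samples 1 and 2 and PBS samples 1 and 2, against 2.99, 3.67, 4.86 and 4.01 in negative cells of the same samples. The gap was wide in the spermidine samples and narrow in the PBS samples. Isg15, a ubiquitin-like protein induced by interferon, had 90.6, 106.9, 69.4 and 60.4 CPM in positive cells, against 30.9, 27.1, 41.1 and 45.4 in negative cells in the same order of samples. Its mean log2 ratio was 1.15 ± 0.70 (SD, n = 4). Irgm1 and Iigp1, interferon-induced GTPases, had mean log2 ratios of 0.98 ± 0.65 and 0.90 ± 0.62, and Gbp2, a guanylate-binding protein, one of 0.60 ± 0.67 (SD, n = 4 each). Ifit3 had 1.40 ± 0.67 and Ifi44 1.38 ± 0.24 (SD, n = 4 each).

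The same split, with the same limit on the mean level, was made within each cluster. In cluster 1, 12 of 26 interferon gamma targets and 11 of 25 type I targets were higher in positive cells of all 4 samples and 0 were lower, where 7.2% of 11152 genes were higher and 7.5% lower. In cluster 2, 7 of 24 interferon gamma targets were higher and 2 were lower, and 3 of 28 type I targets (10.7%) were higher and 0 lower, where 7.43% of 9889 genes were higher and 10% lower. The share of type I targets there was close to that of all genes. In cluster 4, 9 of 21 interferon gamma targets and 7 of 18 type I targets were higher and 0 lower, where 5.93% of 9280 genes were higher and 9.26% lower. Isg15 was higher in positive cells of all 4 samples in each cluster, with mean log2 ratios of 1.30 ± 0.76 in cluster 1, 1.29 ± 1.26 in cluster 2 and 1.31 ± 0.91 in cluster 4 (SD, n = 4 each).

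Genes upstream of these targets were also set side by side. Of 8 genes of type I and III interferons and their receptors 3 were higher in positive cells of all 4 samples and 1 was lower, with a median of the mean log2 ratio of -0.03. The interferon gamma receptor chain Ifngr2, at 0.18 ± 0.19, and the kinase Jak1, at 0.21 ± 0.15, were higher in positive cells of all 4 samples, and Irf2, at -0.40 ± 0.26, and Pias1, at -0.27 ± 0.13, were lower (mean log2 ratio, SD, n = 4 each). Of 18 NF-kB factors and targets 6 were higher in all 4 samples, among them Nfkbie (0.27 ± 0.07), Icam1 (0.24 ± 0.07) and Nfkbia (0.19 ± 0.14), and 2 were lower, with a list median of 0.03. Over the class 9.02% of all genes were higher and 15.7% lower. Within clusters 1, 2 and 4, 2 of 18, 5 of 18 and 3 of 15 NF-kB genes were higher in all 4 samples, and 0, 0 and 1 lower. Of 8 genes of type I and III interferons and receptors, 1, 0 and 1 were higher there and 0, 1 and 0 lower. Of all genes 7.2%, 7.43% and 5.93% were higher in these clusters. Differences between these lists were not tested. Art3, which overlaps Cxcl10 on the other strand, had 33.1, 29.1, 34.4 and 26.8 CPM in positive cells, against 11.1, 11.8, 17.2 and 14.4 in negative cells in the same order of samples. Reads of Cxcl10 and Art3 cannot be told apart where their exons overlap if strand was not used. Of genes neighbouring the chemokines on chromosome 5, 1 of 6 was higher in positive cells of all 4 samples over the class and 2 were lower. Within clusters 1, 2 and 4, 0 of 6, 1 of 5 and 0 of 6 were higher, and 2, 1 and 0 were lower. The part of cluster shares in the Art3 difference was not tested.

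**Figure D4:**
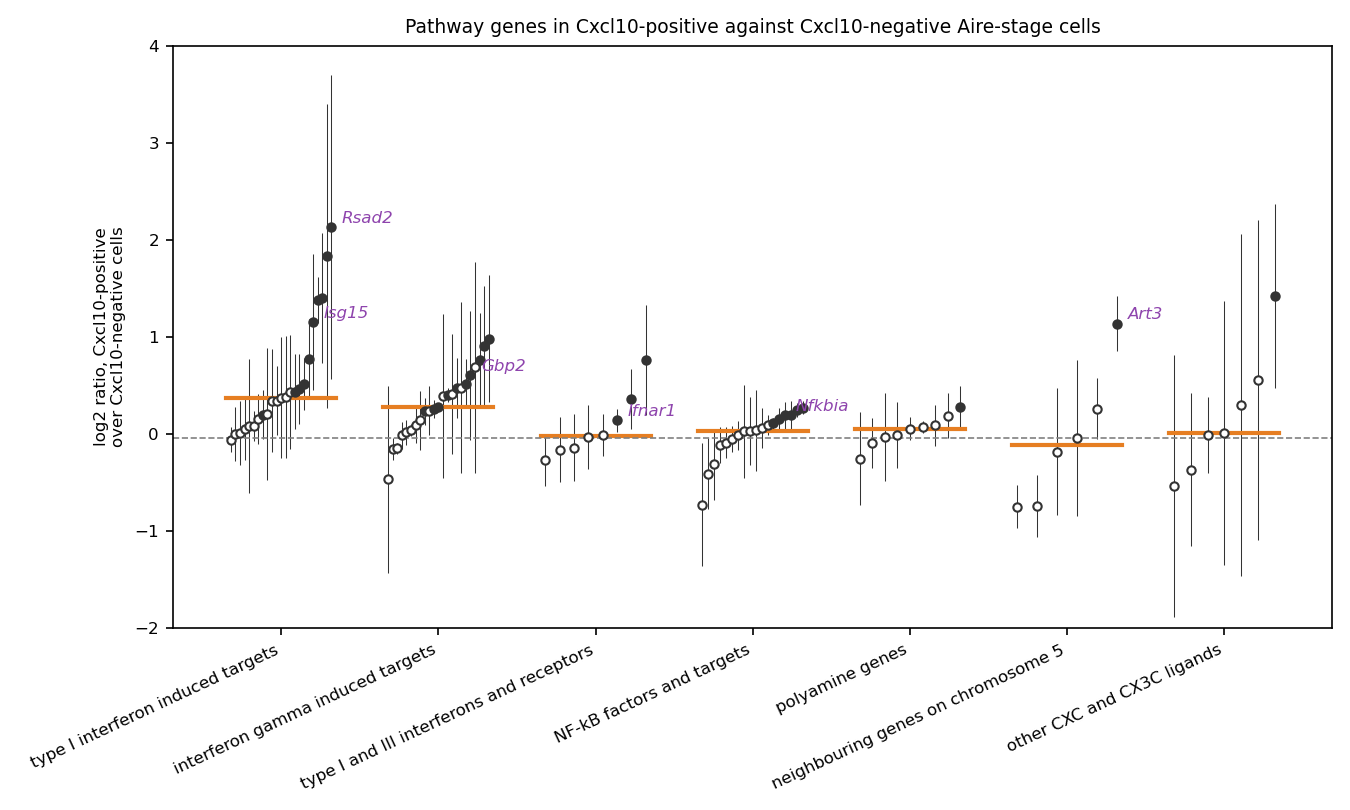
Log2 ratio, on CPM plus 1, of pathway list genes between Cxcl10-positive and Cxcl10-negative Aire-stage-like cells, each point the mean and each bar the SD over 4 hashed samples, filled points for genes higher in all 4 samples, orange lines for list medians and a dashed line for the median of all genes. Rsad2 and Isg15 lie at 2.13 and 1.15, whereas Ifnar1 and Nfkbia lie at 0.14 and 0.19.

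The receptor and the classical inducer were rare in the cells themselves. Cxcr3 had 24 UMIs in 13 of the 3739 cells. Ifng had 149 UMIs in 25 cells, 139 of them in 18 Aire-stage-like cells, and no UMI in 98 thymocyte-like or 68 myeloid-like cells, which allows a share of cells with a UMI of up to 3.06% and 4.41%. Ifnlr1, the receptor chain of type III interferons, had 173 UMIs in 133 cells.

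Between treatments, all 3 chemokines had higher mean levels with spermidine when all cells of a sample were summed, and none of the 3 passed the test over all genes. Cxcl10 had 485.9 and 507.9 CPM in spermidine samples, against 245.1 and 376.8 CPM in PBS samples, and the treatments did not overlap. Its log2 fold change was 0.71 (SE 0.22, edgeR quasi-likelihood test, Benjamini-Hochberg adjusted p = 0.257). Cxcl11 had 84.7 and 86.4 CPM in spermidine samples, against 48.2 and 66.5 CPM in PBS samples, again without overlap, with a log2 fold change of 0.61 (SE 0.18, edgeR adjusted p = 0.244). Cxcl9 had 315.6 and 265.8 CPM in spermidine samples, against 135.6 and 301.7 CPM in PBS samples, which overlapped, with a log2 fold change of 0.44 (SE 0.39, edgeR adjusted p = 0.627). Of 21575 genes tested, 24.9% had both spermidine samples above both PBS samples, and 0 genes (0%) passed an adjusted p of 0.05 with edgeR. At an unadjusted p under 0.05 there were 3361 genes, and DESeq2 called 539 at an adjusted p of 0.05, Cxcl10 among them (log2 fold change 0.71, adjusted p = 0.0163). The values moved in opposite directions with the PBS sample left out. Without PBS sample 1 the log2 fold changes of Cxcl9, Cxcl10 and Cxcl11 were -0.04, 0.41 and 0.37 (edgeR adjusted p = 0.919, 0.219 and 0.265). Without PBS sample 2 they were 1.15, 1.07 and 0.88 (edgeR adjusted p = 0.0214, 0.0173 and 0.0181). A fit with a sample left out has 1 sample in that treatment, which is assumed to vary like the 2 samples of the other, so its p-value adds no support to a difference that did not pass with all 4. In mTEC-like cells alone, which leave out thymocyte-like and myeloid-like cells, the log2 fold changes were 0.45 for Cxcl9, 0.72 for Cxcl10 and 0.63 for Cxcl11 (edgeR adjusted p = 0.618, 0.255 and 0.238), and 0 of 21429 genes (0%) passed.

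The share of Aire-stage-like cells moved with treatment. They were 45.1% and 45.1% of cells in spermidine samples, against 23.1% and 32.6% in PBS samples, while tuft-like cells were 21.1% and 20.1% in spermidine samples, against 35% and 28.1% in PBS samples. With each class held at its mean share of UMIs over the 4 samples, a calculation chosen after the data were seen, Cxcl10 was at 410.7 and 436.1 CPM in spermidine samples, against 345.3 and 378.7 in PBS samples. The ratio of spermidine to PBS means was 1.6 with the shares as measured and 1.17 with the shares held. For Cxcl11 the ratio was 1.49 as measured and 1.09 with the shares held, and for Cxcl9 1.33 as measured and 1.02 with the shares held. At held shares Cxcl10 and Cxcl11 still did not overlap between treatments, and Cxcl9 did. The shares of clusters 1, 2 and 4 within the Aire-stage-like class were not held. Small classes such as ciliated-like cells entered with their own levels in each sample. How many other genes do not overlap at held shares was not computed. With the shares as measured, 24.9% of 21575 genes had both spermidine samples above both PBS samples.

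**Figure D5:**
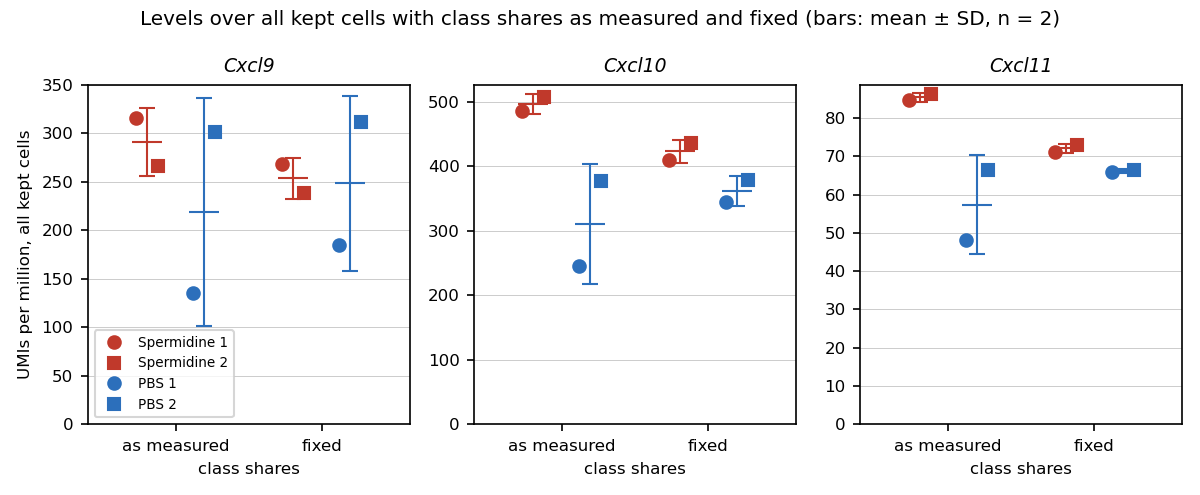
CPM of the 3 chemokines over all cells of each hashed sample, with class shares as measured and with each class held at its mean share, spermidine left of PBS, bars giving mean and SD of 2 samples. For Cxcl10 the mean of the 2 spermidine samples is 1.6 times that of the 2 PBS samples as measured and 1.17 times with shares held.

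Within Aire-stage-like cells Cxcl10 had a log2 fold change of 0.31 (SE 0.08, edgeR adjusted p = 0.458), Cxcl11 one of 0.26 (SE 0.09, edgeR adjusted p = 0.511) and Cxcl9 one of -0.01 (SE 0.27, edgeR adjusted p = 0.997). None passed, and 0 of 18348 genes (0%) did, with 1704 at an unadjusted p under 0.05 and 134 called by DESeq2. Both spermidine samples were above both PBS samples for Cxcl10 and for Cxcl11, as for 21% of all genes tested. The share of cells with a Cxcl10 UMI at 2000 UMIs was 43.5% and 48.4% in spermidine samples, against 41.9% and 40.1% in PBS samples, and for Cxcl11 it was 19.5% and 24.1%, against 17.1% and 15.7%. For either difference the exact two-sided permutation test gave p = 0.333, the smallest it allows with 2 samples against 2. Clusters 1, 2 and 4 made up 184, 145 and 164 of the cells in spermidine sample 1 and 129, 118 and 116 in spermidine sample 2, against 88, 99 and 62 in PBS sample 1 and 94, 105 and 51 in PBS sample 2. Marker UMIs of erythroid cells summed over 7 genes were 293.0 and 787.2 CPM in these cells of spermidine samples, against 132.5 and 134.7 CPM in PBS samples, with 3 of 7 markers above in both spermidine samples and none at 0. Those of myeloid cells, over 14 markers, summed to 895.7 and 718.1 CPM in spermidine samples, against 1069.4 and 969.2 CPM in PBS samples. The part of either in the chemokine values was not tested.

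In cluster 4 Cxcl10 had a log2 fold change of 0.74 (SE 0.16, edgeR adjusted p = 0.606), Cxcl11 one of 0.60 (SE 0.15, edgeR adjusted p = 0.679) and Cxcl9 one of 0.39 (SE 0.22, edgeR adjusted p = 0.874). Of 12168 genes 2 passed there (0.0164%), neither of them a chemokine of this family. With 1 sample left out, and so 1 sample in a treatment, Cxcl10 there ran from 0.54 to 0.93, with edgeR adjusted p = 0.00396 without spermidine sample 1 and 0.145 to 0.441 without any 1 of the other samples. With counts capped at 10 UMIs per cell it was 0.17 (edgeR adjusted p = 0.816). In cluster 1 the log2 fold changes were -0.27 for Cxcl9, -0.004 for Cxcl10 and 0.02 for Cxcl11, and in cluster 2 they were 0.70, 0.14 and 0.19, with 0 genes called in either cluster (0%). In cluster 7, 2 of 9929 genes passed (0.0201%), 1 of them higher (0.0101%), and Cxcl9 and Cxcl10 had log2 fold changes of -0.83 and -1.38 with edgeR adjusted p = 0.9998 and 0.973. Enterocyte- or hepatocyte-like and microfold-like cells called 0 genes (0%), with log2 fold changes of the chemokines between -0.50 and -0.07. Tuft-like cells, where 17 of 12644 genes passed (0.134%), gave Cxcl10 a log2 fold change of 0.81 (SE 0.39, edgeR adjusted p = 0.505). It rests on the 1 cell with 84 UMIs, since without the highest cell of each sample the class was at 18.6 and 14.2 CPM in spermidine samples, against 17.2 and 14.1 CPM in PBS samples.

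Immature-like cells showed the opposite order for Cxcl10 and Cxcl11. Cxcl11 was counted 33 and 47 times in 11 and 13 cells of the spermidine samples, against 177 and 165 times in 37 and 28 cells of the PBS samples. The class held 47 and 44 cells in spermidine samples, against 88 and 65 cells in PBS samples, and median depth was 10483 and 11231 UMIs per cell, against 11279 and 11853 UMIs. The log2 fold change was -1.31 for Cxcl11 (SE 0.22, edgeR adjusted p = 0.139), -0.52 for Cxcl10 (SE 0.18, edgeR adjusted p = 0.621) and 0.06 for Cxcl9 (SE 0.46, edgeR adjusted p = 0.996). None passed, and 0 of 9283 genes (0%) did, with 582 at an unadjusted p under 0.05 and 0 called by DESeq2. With 1 sample left out Cxcl11 ran from -1.61 to -1.05, with edgeR adjusted p from 6.06e-05 to 0.13, again from fits with 1 sample in a treatment. It was -0.22 with cells assigned from 4 hashtags, where cells were clustered anew. The class then held 114 and 109 cells in spermidine samples, against 130 and 108 cells in PBS samples. Of the 4709 cells assigned in that way, 897 were doublets on 6 hashtags. Both spermidine samples were below both PBS samples for 17.3% of genes in this class. At 2000 UMIs a Cxcl11 UMI was seen in 8.5% and 4.5% of immature-like cells in spermidine samples, against 16.5% and 16.9% in PBS samples. Summed UMIs of 13 thymocyte markers in this class were 14.7 and 5.05 CPM in spermidine samples, against 33.5 and 24.2 CPM in PBS samples, with Cd3e, Cd8b1 and Rag1 at 0, and their part in this result was not tested.

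The difference between the 2 classes in the effect of spermidine was tested after these values had been seen. For Cxcl11 the log2 fold change in immature-like cells minus that in Aire-stage-like cells was -1.62 (SE 0.23, edgeR adjusted p = 0.0118), and 11 of 16376 genes passed (0.0672%). For Cxcl10 the difference was -0.89 (SE 0.17, edgeR adjusted p = 0.137) and for Cxcl9 0.27 (SE 0.42, edgeR adjusted p = 1). The Cxcl11 difference did not pass with DESeq2 (-1.57), with a stricter cell filter (-1.34), with coarser clusters (-1.57), without spermidine sample 1 (-1.40) or with cells assigned from 4 hashtags (-0.35).

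No gene of the wider pathway around the chemokines passed the test in all cells, Aire-stage-like cells or immature-like cells, where no gene at all was called with edgeR. In Aire-stage-like cells 0 of 30 interferon gamma targets, 0 of 31 type I interferon targets and 0 of 18 NF-kB factors and targets were called in either direction. By sign 14 of 30 interferon gamma targets had higher fitted values with spermidine (median log2 fold change -0.02), 20 of 31 type I targets did (0.10) and 11 of 18 NF-kB genes did (0.05), beside 49.3% of all genes and their median of -0.004. On the TMM CPM scale of the fits, Rsad2 had 20.9 and 30.8 TMM CPM in spermidine samples, against 7.07 and 5.32 in PBS samples, with a log2 fold change of 2.06 (SE 0.29, edgeR adjusted p = 0.438). Isg15 averaged 64.6 ± 8.1 TMM CPM in spermidine samples and 53.4 ± 0.8 in PBS samples (SD, n = 2 each). Ubd, a ubiquitin-like modifier induced by interferon gamma, averaged 2939 ± 12 TMM CPM in spermidine samples and 3687 ± 26.1 in PBS samples (SD, n = 2 each), with a log2 fold change of -0.33 (edgeR adjusted p = 0.438).

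Of the receptor genes in Aire-stage-like cells, Ifngr1 averaged 25.5 ± 1.1 TMM CPM in spermidine samples and 24.2 ± 3.6 in PBS samples, and Ifngr2 159 ± 1.9 and 139 ± 4.5 (SD, n = 2 each). The type I receptor chains Ifnar1 and Ifnar2 averaged 27.2 ± 1.8 and 26.4 ± 0.1 TMM CPM in spermidine samples, against 30.8 ± 1.1 and 28.7 ± 0.9 in PBS samples (SD, n = 2 each). Irf1, a transcription factor induced by interferon gamma, averaged 82.9 ± 5.4 TMM CPM in spermidine samples and 98.8 ± 1.9 in PBS samples (SD, n = 2 each). In immature-like cells 22 of 23 interferon gamma targets and 25 of 28 type I targets had lower fitted values with spermidine (medians -0.24 and -0.26). Of all genes there 50.5% were higher, with a median of 0.004. Tuft-like cells had 18 of 24 and 25 of 26 lower (medians -0.22 and -0.46), and microfold-like cells 13 of 21 and 14 of 18. Of all genes, 48.9% were higher in tuft-like cells and 49.8% in microfold-like cells. In cluster 2, 23 of 27 type I targets were higher (median 0.42). Of interferon gamma targets there 13 of 25 were higher (median 0.05), close to the 50.3% of all genes. None of these targets passed in any of the 4 sets of cells. Over all cells 15 of 18 NF-kB genes had higher fitted values with spermidine (median 0.27, beside 50.5% of all genes and their median of 0.004), and none passed. Within Aire-stage-like cells, whose share of all cells was itself higher with spermidine, that list had 11 of 18 and a median of 0.05, and the part of the share in the value over all cells was not tested. The overlapping gene Art3 averaged 21.2 ± 0.2 TMM CPM in Aire-stage-like cells of spermidine samples and 22.3 ± 3.4 in those of PBS samples (SD, n = 2 each). Of other CXC and CX3C ligands 0 of 13 were called in Aire-stage-like cells, and Cxcl16, a membrane-bound chemokine, averaged 56.5 ± 8.4 TMM CPM in spermidine samples and 77.5 ± 6.4 in PBS samples (SD, n = 2 each, log2 fold change -0.45, edgeR adjusted p = 0.488). Of 10 polyamine genes none was called there.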

How the data were processed

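RNA and hashtag counts of 1 10x Genomics 3' run were deposited as UMI counts per gene and barcode, 12139 barcodes by 55487 genes and 15 hashtags. Per the file headers the software was Cell Ranger 7.1.0, and the submitters' processing notes name Cell Ranger, bcl2fastq, Seurat and the mm10 build. How reads of overlapping genes were counted, and with which strand setting, is not given in the sources used here.

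Of the barcodes, those with at least 1000 UMIs, 500 genes and under 15% mitochondrial UMIs (8534) were assigned with HTODemux (Seurat 5.3.0, R 4.3.3, positive quantile 0.99) on 6 hashtags. That gave 3739 cells in the 4 samples, 1887 doublets and 502 negatives, and 2406 cells of 2 hashtags without a sample in the labels, which are not analysed here. No doublet caller was run on RNA. Clusters came from scanpy 1.11.5 (Python 3.11.15, leidenalg 0.10.2, counts per 10000, 2000 variable genes, 30 components, 15 neighbours, resolution 1), without sample, treatment or the 3 chemokines. Clusters were named from 21 marker lists. UMIs were summed per sample and class, where a class had at least 20 cells in each sample, and tested with edgeR 4.0.16 (quasi-likelihood, TMM, filterByExpr with minimum count 10 and minimum total 15, Benjamini-Hochberg over all genes, threshold 0.05). CPM are raw sums over the class total, and TMM CPM from the fits use TMM-scaled totals. Shares were compared after thinning to 2000 UMIs with an exact permutation test (scipy 1.17.1). DESeq2 1.42.0, other filters, normalization, thinning, assignments and cluster settings, and leaving out each sample were tried. The fit was tested on simulated counts. Smaller classes and classes of few UMIs carry larger errors.

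The genes named were the 3 chemokines, up to 4 genes of highest mean level in Aire-stage-like cells of each of 10 pathway lists, a set of interferon pathway genes with Art3, and the 5 genes most like each chemokine. Genes named in the split by Cxcl10 detection, and Irgm1, Iigp1, Ifit3 and Ifi44 among them, were chosen after their values were seen. The chemokines, lists, markers and tests were chosen with earlier results of these data known. 1 gene of these lists and the counts of its list are not reported here.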

Additional observations from a re-analysis of the deposited data

Results flagged for a closer look

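The spermidine effect on Cxcl11 in immature-like and Aire-stage-like cells was compared by a test of the difference itself, chosen after the values of the same samples were seen, so its p-value is a description. The log2 fold change in immature-like cells minus that in Aire-stage-like cells was -1.62 (SE 0.23, edgeR adjusted p = 0.0118). Both spermidine samples were below both PBS samples in immature-like cells, and above both in Aire-stage-like cells. Of all genes tested, 17.3% lay below in that way in immature-like cells and 21% above in Aire-stage-like cells. The difference did not pass with DESeq2 (-1.57, adjusted p = 0.0553), with a stricter cell filter (-1.34, edgeR adjusted p = 0.171), with coarser clusters (-1.57, edgeR adjusted p = 0.0614), without spermidine sample 1 (-1.40, edgeR adjusted p = 0.057) or with cells assigned from 4 hashtags (-0.35, edgeR adjusted p = 0.518).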

How the results depend on the processing

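The 36 results were recomputed under the alternatives, giving 421 values, of which 312 stayed the same. For fold changes and their differences that means the same direction and side of the threshold. For shares of cells it means the same direction, and for counts of genes called a similar number. With 2 samples a treatment the spread estimate carries the calls, a treatment left with 1 sample is assumed to vary like the other, and the cause of each change below was not tested. Counts of genes called moved most. In all cells 0 were called with edgeR, 539 with DESeq2, 2645 with no low-count filter, 235 with counts capped at 10 UMIs per cell, and 0 to 1026 when each sample was left out. In mTEC-like cells 0 were called with edgeR, 522 with DESeq2, 2658 with no filter, 248 with capped counts, and 0 to 1172 with a sample left out. In Aire-stage-like cells the counts were 134 with DESeq2 and 401 with no filter. In immature-like cells they were 149 with no filter, 1107 with 4 hashtags, 1 with the stricter cell filter, 1 with coarser clusters and 37 to 77 with a sample left out. In enterocyte- or hepatocyte-like, microfold-like and tuft-like cells together 17 genes were called, against 64 with DESeq2, 803 with no filter, 41 with capped counts, 5 with the margin rule for hashtags, 11 with the stricter cell filter and 88 to 144 with a sample left out. Chemokines called in these 3 classes numbered 0, against 1 with no filter and 0 to 2 with a sample left out.

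Log2 fold changes in all cells that passed with no filter were 0.43 for Cxcl9, 0.70 for Cxcl10 and 0.60 for Cxcl11, and in mTEC-like cells 0.45, 0.71 and 0.62. Cxcl10 passed with DESeq2 at 0.71 in all cells and 0.72 in mTEC-like cells, and Cxcl11 passed with capped counts at 0.73 in mTEC-like cells. With a sample left out Cxcl9 ran from -0.043 to 1.15, Cxcl10 from 0.41 to 1.07 and Cxcl11 from 0.37 to 0.88 in all cells, and from -0.031 to 1.16, 0.42 to 1.08 and 0.39 to 0.89 in mTEC-like cells. In Aire-stage-like cells Cxcl10 passed with no filter at 0.32, and Cxcl9 turned positive with no filter (0.0092) and ran from -0.31 to 0.37 with a sample left out. Its share of cells with a UMI turned positive without thinning (3.27 percentage points) and at 2 or more UMIs (5.99), and ran from -2.65 to 0.29 with a sample left out. In immature-like cells Cxcl9 turned negative with capped counts (-0.18), 4 hashtags (-0.20), the stricter cell filter (-0.051) and coarser clusters (-0.050), and ran from -0.69 to 1.59 with a sample left out, passing without PBS sample 2. Cxcl10 turned positive there with 4 hashtags (0.57), a setting that clusters anew and gives more immature-like cells in each sample.

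The difference between immature-like and Aire-stage-like effects was below the threshold for Cxcl11 with 4 hashtags (-0.35), the stricter cell filter (-1.34), coarser clusters (-1.57) and DESeq2 (-1.57), and ran from -1.85 to -1.40 with a sample left out. For Cxcl10 it turned positive with 4 hashtags (0.40), passed with no filter (-0.87), and ran from -1.07 to -0.68 with a sample left out, passing without PBS sample 1 (-0.85) and without PBS sample 2 (-0.83). For Cxcl9 it turned negative with capped counts (-0.22) and 4 hashtags (-0.012), and ran from -0.42 to 1.19 with a sample left out, passing in the direction opposite to Cxcl11 without PBS sample 2 (1.19).

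Replicate numbers were shared between treatments, but same-numbered samples deviated together with correlations of only -0.06 to 0.05, and with 2 pairs the numbers pair nothing. With replicate number as a block, Cxcl9 in Aire-stage-like cells was 0.015, Cxcl11 in immature-like cells passed (-1.32), 9 genes were called in immature-like cells, and 207 genes and 1 chemokine in the 3 other classes together. It moved no call of a chemokine in all cells, mTEC-like cells or Aire-stage-like cells.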
